A study of Rattus norvegicus with 18 samples.

Results

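The genes described are 7 genes of the circadian clock, Dbp, Per1, Per2, Per3, Nr1d1, Arntl and Clock, among 37262 genes measured by RNA sequencing of rat hearts. They were selected by their Ensembl identifiers, which the rule of selection paired with gene symbols, since neither the deposited tables nor the RefSeq table pairs them. A gene under 1 FPKM in all 18 libraries was to be dropped, and none was: the gene nearest to that bound was Clock, whose highest library stood at 7.03 FPKM. The deposited values were read as FPKM, a level normalized for gene length and sequencing depth. The set was chosen with earlier results of these data known, and Dbp had drawn attention through its own differences between the groups, so the values of Dbp are given as a description without a test. The other genes belong to the same clock as Dbp, so their calls are independent neither of Dbp nor of each other. All 7 genes were at 1 FPKM or more in every library.

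The 3 groups had 6 libraries each. They were hearts of SHR (the spontaneously hypertensive rat) given QDG, hearts of SHR given NS, and hearts of WKY (the Wistar-Kyoto rat, the normotensive strain commonly set beside SHR). The labels expand neither QDG nor NS, state no dose, age or sex, and do not say whether WKY received NS. Strain and NS therefore cannot be told apart in SHR given NS against WKY, nor strain and QDG in QDG-treated SHR against WKY. The labels also do not give the time of day at which the hearts were taken. The mRNAs of clock genes follow the time of day, so group and time of collection cannot be told apart in any difference between groups below. The labels count 6 per group without saying that each library is a separate animal, so the p-values cover variation from library to library, which may be technical.

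The circadian clock of mammalian cells is a feedback loop of transcription. ARNTL (also called BMAL1) and CLOCK are the activators: they pair and bind E-box elements in the genes Per1, Per2, Per3, Nr1d1 and Dbp. The PER proteins enter complexes that inhibit this pair, and NR1D1 (REV-ERB alpha) represses Arntl through the elements that the ROR receptors also bind. DBP is an output of the loop, a transcription factor that acts on D-box elements, including those of the Per genes. In rodent hearts Dbp, Nr1d1 and the Per genes are known to peak at another phase of the day than Arntl, whose mRNA runs against them, while Clock mRNA changes little.

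Of 4 promoters with a match to one of the motifs below close to a start site, 3 are shown, so that each motif found can be seen in its place. All 7 genes were matched by symbol in the RefSeq table for build GRCr8 (Arntl as Bmal1), with 9 start sites in all, each with 250 bases before and 50 after the start. The motifs searched on both strands were the E-box CACGTG, its variant CACGTT, the D-box as TTATGTAA or TTACGTAA, and the element AGGTCA bound by NR1D1 and the ROR receptors. The variant CACGTT was added after the others had been searched. Capitals mark the matches, and each line runs 5′ to 3′ on the strand of the gene.
Per2, GRCr8 chr9:99496944-99497243, minus strand: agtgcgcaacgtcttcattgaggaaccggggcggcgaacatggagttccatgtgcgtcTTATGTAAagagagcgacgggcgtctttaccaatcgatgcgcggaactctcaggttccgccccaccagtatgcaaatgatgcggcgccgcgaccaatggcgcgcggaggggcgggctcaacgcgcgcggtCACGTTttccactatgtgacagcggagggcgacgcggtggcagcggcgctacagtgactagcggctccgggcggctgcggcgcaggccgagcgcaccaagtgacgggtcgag
Nr1d1, downstream start site, GRCr8 chr10:84229405-84229704, minus strand: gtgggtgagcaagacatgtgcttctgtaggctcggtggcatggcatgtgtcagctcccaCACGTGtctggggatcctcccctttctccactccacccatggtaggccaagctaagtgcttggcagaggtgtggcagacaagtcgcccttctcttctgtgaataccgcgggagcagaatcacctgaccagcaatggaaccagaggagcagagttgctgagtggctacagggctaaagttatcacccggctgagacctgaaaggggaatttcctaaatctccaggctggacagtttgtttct
Arntl, GRCr8 chr1:176766078-176766377, plus strand: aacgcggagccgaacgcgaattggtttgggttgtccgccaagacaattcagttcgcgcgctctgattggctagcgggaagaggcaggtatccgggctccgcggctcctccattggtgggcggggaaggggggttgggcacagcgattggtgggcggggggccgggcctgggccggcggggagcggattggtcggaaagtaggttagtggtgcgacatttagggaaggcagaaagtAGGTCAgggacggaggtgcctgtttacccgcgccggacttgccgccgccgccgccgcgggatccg

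In Per2 the D-box TTATGTAA began 192 bases and the E-box variant CACGTT 62 bases before the start site. The downstream start site of Nr1d1 had the E-box CACGTG 191 bases before it, and the upstream one had the variant on the opposite strand, 174 bases before the start, and is not shown. Arntl held AGGTCA 15 bases before its start. Of the 33469 promoters of that length in the table, 6.42% held CACGTG, 4.83% CACGTT, 0.893% TTATGTAA, 0.120% TTACGTAA and 16.2% AGGTCA. Of the 9 windows, CACGTG and AGGTCA were in 1 each. The D-box of Per2 was also in 1 of 9, and the variant was in the windows of both Per2 and the upstream Nr1d1 start site. AGGTCA was thus below its share of all promoters, and the other motifs found were above theirs, the D-box and the variant included. Whether these few matches exceed those shares was not tested, so nothing particular to the clock genes is read from them. The other 5 windows, of Dbp, Per1, Per3 and both start sites of Clock, held none of these letters, which says nothing of elements elsewhere in those genes.

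FPKM summed to between 598626 and 676288 per library, and 6245 to 6972 genes were listed at 0. The gene with the most FPKM in a library held 12.8 to 14.0% of the sum in QDG-treated SHR, 12.8 to 14.9% in SHR and 16.02 to 21.1% in WKY, so that WKY did not overlap the SHR groups in this share. Absolute depth is unknown. Because neither table pairs symbols with identifiers, other clock genes (the Cry genes, Nr1d2, Npas2, Rora, Tef and Hlf among them) were not analysed here, and the label heart was not checked against marker genes. In bulk tissue, fewer cells of a type and less RNA per cell cannot be told apart.

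Dbp (ENSRNOG00000021027), the output factor, had the widest range of the set across groups. Its level in QDG-treated SHR ran from 23.3 through a median of 29.6 to 39.8 FPKM. In SHR it ran from 8.21 through 13.1 to 22.1 FPKM, and in WKY from 2.61 through 3.86 to 5.30 FPKM. No library of one group reached the range of another, with the QDG-treated hearts highest and the WKY hearts lowest. The means were 30.4 ± 5.64 FPKM in QDG-treated SHR, 14.6 ± 6.08 FPKM in SHR and 3.99 ± 1.08 FPKM in WKY (SD, n = 6 each), which puts the treated mean at 2.08 times that of SHR and 7.61 times that of WKY.

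Per3 (ENSRNOG00000018413), a member of the PER family that is regarded as less essential to the loop than Per1 and Per2, followed the same order at lower levels. It lay at 6.38, 8.20 and 9.04 FPKM (lowest, median and highest library) in QDG-treated SHR, at 3.22, 4.47 and 6.82 FPKM in SHR, and at 1.24, 1.42 and 1.74 FPKM in WKY. Every QDG-treated library and every SHR library stood above every WKY library, and 5 of the 6 QDG-treated libraries stood above all SHR libraries. The treated library inside the SHR range was replicate 5, at 6.38 FPKM, which was also the lowest of its group for Dbp.

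Per2 (ENSRNOG00000020254), one of the main repressors of the loop, separated WKY from both SHR groups but not the SHR groups from each other. Its lowest, median and highest libraries were at 5.73, 6.85 and 8.99 FPKM in QDG-treated SHR, at 4.28, 7.01 and 11.4 FPKM in SHR and at 2.54, 3.51 and 3.99 FPKM in WKY. The SHR range enclosed the whole range of the treated group. Within SHR, replicates 3, 5 and 6 were at 9.74, 9.04 and 11.4 FPKM, while replicates 1, 2 and 4 were at 4.96, 4.97 and 4.28 FPKM.

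Per1 (ENSRNOG00000007387), the other main repressor, is also induced by stress hormones and other acute signals in rodent tissues. It was the only one of the 3 Per genes whose mean was highest in WKY. The lowest, median and highest libraries were at 10.9, 16.7 and 23.1 FPKM in QDG-treated SHR, at 8.55, 14.6 and 19.1 FPKM in SHR and at 10.7, 22.9 and 26.3 FPKM in WKY. All 3 ranges overlapped, and WKY replicate 1, at 10.7 FPKM, lay apart from the other 5 WKY libraries, at 21.5 to 26.3 FPKM.

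Nr1d1 (ENSRNOG00000009329), the repressor of Arntl, had its lowest, median and highest libraries at 11.7, 23.6 and 29.4 FPKM in QDG-treated SHR, at 13.1, 20.5 and 25.7 FPKM in SHR and at 7.85, 10.4 and 11.5 FPKM in WKY. Both SHR groups lay wholly above WKY. They overlapped each other, and the lowest value of the treated group, 11.7 FPKM in replicate 6, was close to the highest of WKY.

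Arntl (ENSRNOG00000014448), the activator, ran in the opposite order to Dbp. Its lowest, median and highest libraries were at 1.78, 4.98 and 6.39 FPKM in QDG-treated SHR, at 4.83, 7.74 and 10.01 FPKM in SHR and at 10.2, 13.9 and 16.6 FPKM in WKY. The WKY libraries were all above the libraries of both SHR groups, though the gap between the lowest WKY library and the highest SHR library was small. Replicates 3 and 6 of the treated group, at 1.99 and 1.78 FPKM, lay below all SHR libraries, and the other 4 were inside the SHR range.

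Clock (ENSRNOG00000002175), the partner of ARNTL, varied least between groups: the largest ratio of group means was 1.23. It was at 3.47, 4.72 and 5.77 FPKM (lowest, median and highest library) in QDG-treated SHR, at 4.16, 5.63 and 6.47 FPKM in SHR and at 3.28, 6.18 and 7.03 FPKM in WKY. The ranges of all groups overlapped, and the lowest of the 18 values belonged to WKY replicate 5, which had the most genes listed at 0 (6972).

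**Figure D1:**
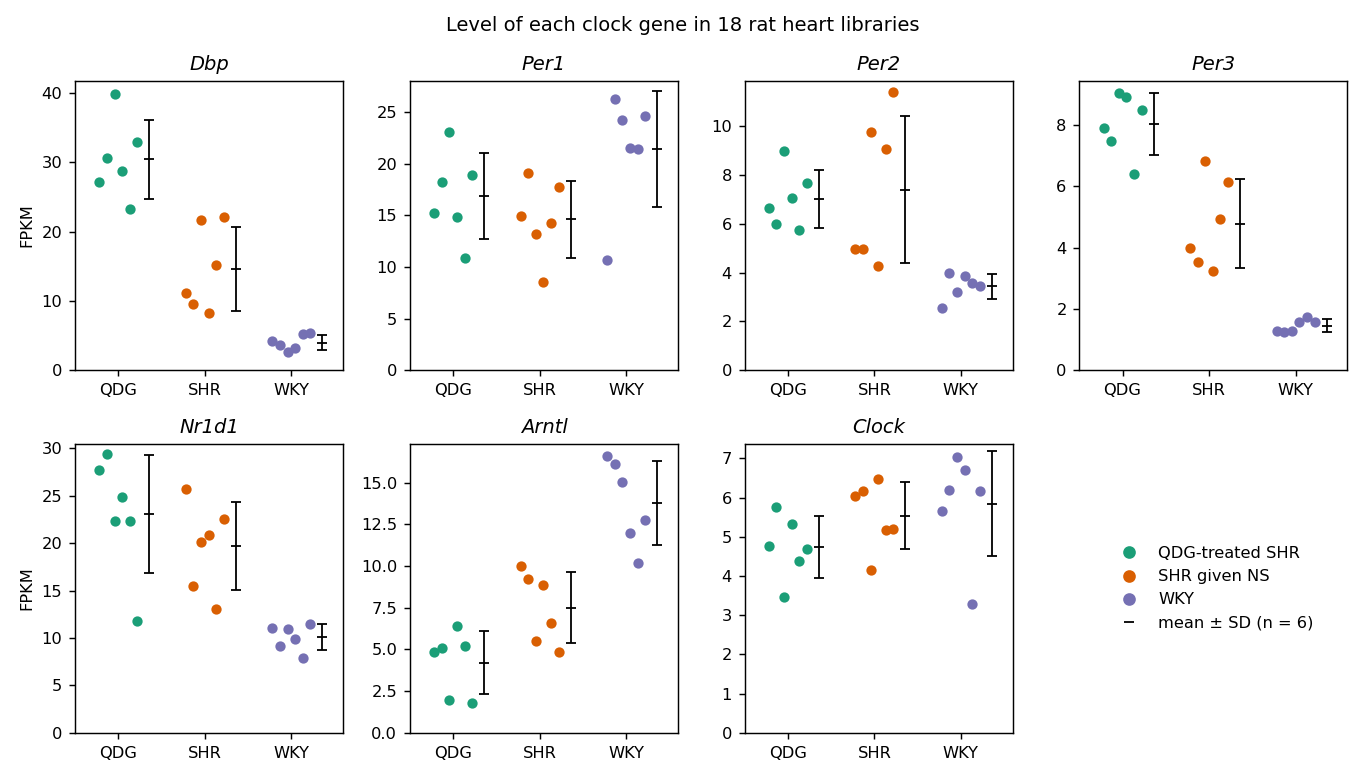
FPKM (vertical axis, starting at 0) of each clock gene in QDG-treated SHR, SHR given NS and WKY hearts; each point is 1 library and the bar beside it is the group mean with its SD (n = 6). Dbp and Per3 are highest in QDG-treated SHR and lowest in WKY, Arntl runs the other way, and Clock overlaps in all groups.

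The first comparison set QDG-treated SHR against SHR given NS, both of the hypertensive strain. It shows differences between the groups, from which time of collection cannot be told apart. Per3 was higher in the treated group, with a mean of 8.03 ± 1.00 FPKM in QDG-treated SHR and 4.77 ± 1.46 FPKM in SHR (SD, n = 6 each). Its fold change was 0.68 on the scale of log2(FPKM + 1), on which every fold change here is given (SE 0.13, limma adjusted p = 0.0263). Of the 6 genes other than Dbp it was the only one called at an adjusted p under 0.05, 1 of 6, where 0.293% of all 17397 genes tested were called. None of the 6 had groups that did not overlap, against 1.15% of all genes.

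The call of Per3 between the SHR groups depended on single libraries. In 8 of the 27 alternatives it did not pass. The limma adjusted p ran from 0.00681 to 0.0798 and the fold change from 0.59 to 0.78 over all 27. It did not pass with no filter on low values or with the compared groups alone (adjusted p = 0.0633 and 0.0798), nor without any 1 of 6 libraries. The limma adjusted p was 0.0649, 0.0623 and 0.0656 without QDG replicates 3, 4 and 6, and 0.0609, 0.0691 and 0.0567 without SHR replicates 1, 2 and 4.

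Arntl averaged 4.22 ± 1.88 FPKM in QDG-treated SHR and 7.51 ± 2.14 FPKM in SHR (SD, n = 6 each). Its fold change was -0.76 (SE 0.24, 95% confidence interval -1.26 to -0.26), but it did not pass adjustment over all genes (unadjusted p = 0.00524, limma adjusted p = 0.232), nor in any of the 27 alternatives, where the adjusted p ran from 0.125 to 0.392. For Per2 the fold change was close to 0, with an interval of -0.39 to 0.39. Intervals were -0.26 to 0.65 for Per1, -0.19 to 0.60 for Nr1d1 and -0.47 to 0.09 for Clock, and their limma adjusted p-values were 0.811, 0.765 and 0.675. Dbp, untested, had a fold change of 1.08 (SE 0.22). The median absolute fold change of the 6 other genes was 0.20, against 0.07 over all genes tested. Their SEs were also larger, from 0.13 for Per3 to 0.24 for Arntl, against a median SE of 0.09 over all genes.

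The second comparison, SHR given NS against WKY, sets the hypertensive against the normotensive strain. Per2, Per3 and Nr1d1 were higher and Arntl was lower in SHR, while Per1 and Clock did not pass the test. Thus 4 of the 6 genes were called, where 24.8% of all genes tested were called. In each comparison the calls of these genes depend on each other and on Dbp, so the 6 do not count as 6 separate tests. The same 4 had groups that did not overlap, against 12.5% of all genes.

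Per3 had the largest fold change of the tested genes, at 1.21 (SE 0.13, limma adjusted p = 9.2e-07), with 4.77 ± 1.46 FPKM in SHR and 1.45 ± 0.207 FPKM in WKY (SD, n = 6 each). Per2 averaged 7.40 ± 3.02 FPKM in SHR and 3.43 ± 0.520 FPKM in WKY, a fold change of 0.85 (SE 0.18, limma adjusted p = 0.0022). Nr1d1 averaged 19.6 ± 4.64 FPKM in SHR and 10.1 ± 1.39 FPKM in WKY, a fold change of 0.87 (SE 0.19, limma adjusted p = 0.0021). The SHR mean was 3.30 times that of WKY for Per3, 2.15 times for Per2 and 1.95 times for Nr1d1.

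Arntl averaged 7.51 ± 2.14 FPKM in SHR and 13.8 ± 2.53 FPKM in WKY, a fold change of -0.82 (SE 0.24, limma adjusted p = 0.0177). The WKY mean was 1.83 times that of SHR. These 4 calls held in all 27 alternatives, median centring and quantile normalization of the libraries among them, with Arntl nearest to the threshold at an adjusted p of up to 0.0438. The share of the gene with the most FPKM, given above, also separated SHR from WKY, and its part in these differences beyond those alternatives was not tested. The fold change of Dbp in this comparison was 1.58 (SE 0.22).

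Per1 stood at 14.6 ± 3.72 FPKM in SHR and 21.5 ± 5.62 FPKM in WKY (SD, n = 6 each), a fold change of -0.51 with a 95% confidence interval of -0.97 to -0.06 (limma adjusted p = 0.0964). Without WKY replicate 1, the low library named above, the fold change was -0.69 and the adjusted p 0.0090. It also passed with sample weights, at an adjusted p of 0.0337, and over all 27 alternatives the adjusted p ran from 0.0090 to 0.206. Clock had 5.54 ± 0.859 FPKM in SHR and 5.84 ± 1.34 FPKM in WKY, and its fold change of -0.05 had an interval of -0.33 to 0.24.

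The third comparison, QDG-treated SHR against WKY, shares its WKY libraries with the second and its treated libraries with the first, and its values are given beside theirs for that reason. Per2, Per3 and Nr1d1 were higher and Arntl was lower in QDG-treated SHR, 4 of 6 genes, where 20.9% of all genes were called. Groups did not overlap for these 4, against 10.4% of all genes. Fold changes were 1.88 for Per3 (SE 0.13, limma adjusted p = 2.2e-09), 1.08 for Nr1d1 (SE 0.19, limma adjusted p = 0.00037) and 0.85 for Per2 (SE 0.18, limma adjusted p = 0.0025). Arntl had a fold change of -1.58 (SE 0.24, limma adjusted p = 1.0e-04), and its mean in WKY was 3.27 times that in the treated group. The share of the gene with the most FPKM separated these groups too, and the 4 calls held in all 27 alternatives.

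Set side by side, the treated and untreated SHR stood apart from WKY by 1.88 and 1.21 for Per3, by -1.58 and -0.82 for Arntl, by 1.08 and 0.87 for Nr1d1 and by 0.85 and 0.85 for Per2. Dbp, untested, stood apart by 2.66 and 1.58. Per1 had a fold change of -0.32 in QDG-treated SHR against WKY (95% confidence interval -0.77 to 0.14, limma adjusted p = 0.353). Clock had one of -0.24 (interval -0.52 to 0.04, limma adjusted p = 0.243). Without WKY replicate 5, whose Clock value was the lowest of all, it was -0.37 with an adjusted p of 0.0141, and with sample weights -0.33 with an adjusted p of 0.0341, while over all 27 alternatives the adjusted p ran from 0.0141 to 0.438.

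**Figure D2:**
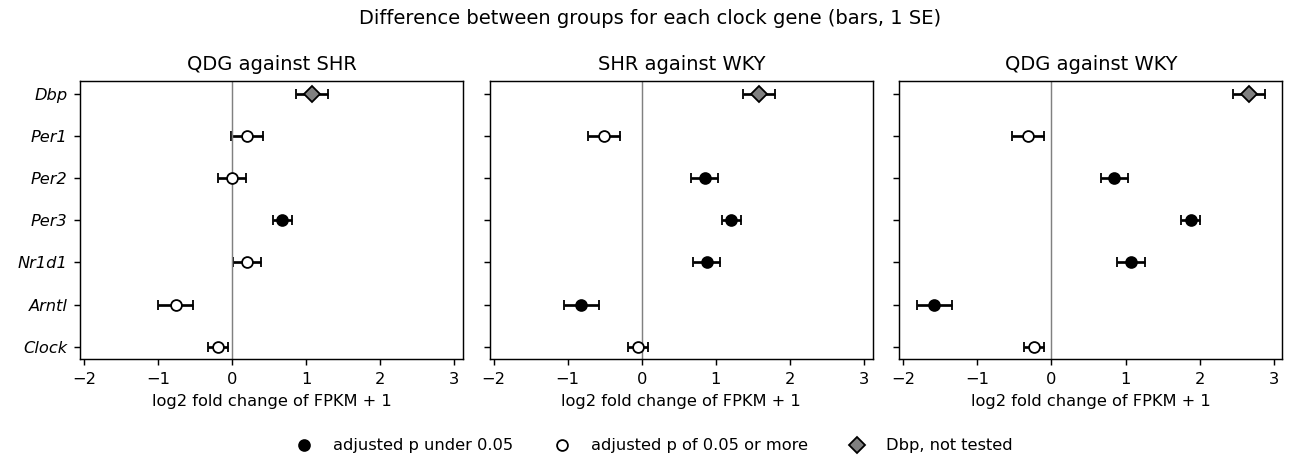
Difference in log2(FPKM + 1) between groups (horizontal axis) for each clock gene in the 3 comparisons; points are fold changes and bars 1 SE, filled circles mark an adjusted p under 0.05, open circles one of 0.05 or more, and Dbp (diamond) was not tested. Per3 is called in all 3 comparisons, while Per2, Nr1d1 and Arntl are called in both comparisons with WKY and not between the SHR groups.

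The output and the activator can be read together in each library as the difference of Dbp and Arntl in log2(FPKM + 1). It ran from 1.97 to 3.77 in QDG-treated SHR (mean 2.66 ± 0.81), from -0.10 to 1.99 in SHR (mean 0.82 ± 0.93) and from -2.15 to -0.86 in WKY (mean -1.58 ± 0.49; SD, n = 6 each). Arntl exceeded Dbp in all WKY libraries, and Dbp exceeded Arntl in all QDG-treated libraries. The SHR libraries all lay above WKY and, except for replicate 6, below the treated group. Replicate 6, at 1.99, lay just above the lowest treated library, QDG replicate 5 at 1.97, so the SHR groups overlapped. Replicate 3, at 1.79, came next. In SHR replicates 3 and 6, Dbp stood at 21.6 and 22.1 FPKM and Arntl at 5.54 and 4.83 FPKM. The treated library with the least Dbp, QDG replicate 5, had 23.3 FPKM of Dbp and 5.19 FPKM of Arntl.

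**Figure D3:**
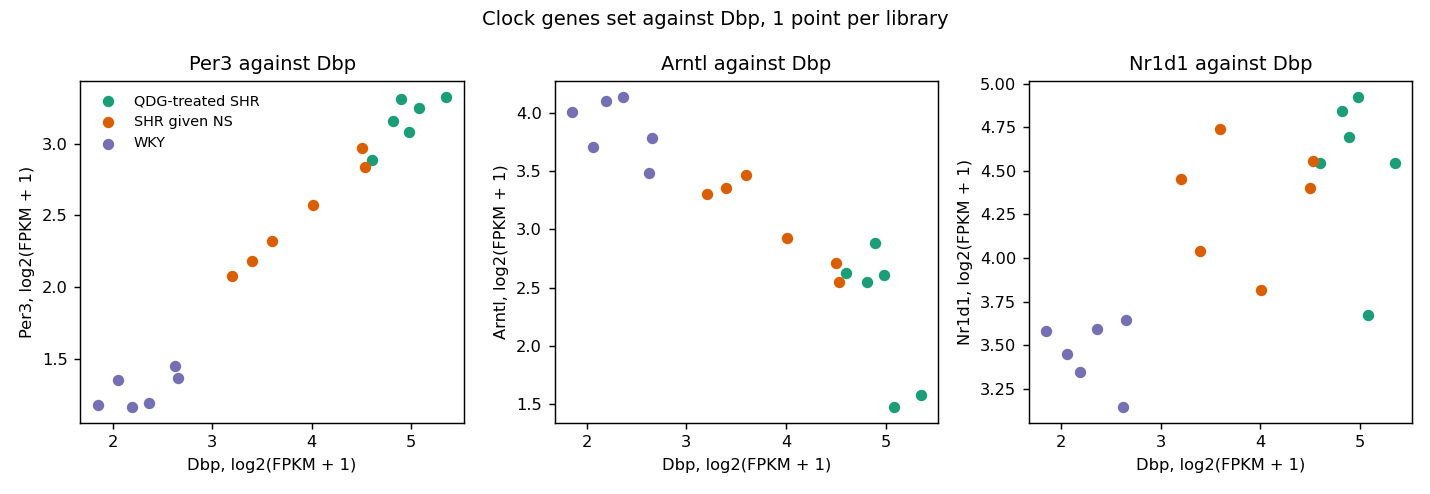
Level of Per3, Arntl and Nr1d1 (vertical axes) against that of Dbp (horizontal axis), all as log2(FPKM + 1), with 1 point per library. SHR replicates 3 and 6, at 21.6 and 22.1 FPKM of Dbp, lie next to the QDG-treated libraries for Per3 and Arntl, and the Nr1d1 value of QDG replicate 6 (11.7 FPKM) lies apart from its group.

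Libraries of one group also differed from each other, and the correlations between clock genes within a group are given as a description. The 21 pairs of genes were correlated within each group by itself, which gives 63 relations over 6 libraries each. None passed Benjamini-Hochberg adjustment over the 63 in a two-sided exact permutation test (smallest adjusted p = 0.0583). With 720 orders a single relation, however close, cannot pass over 63, so that count says little. Unadjusted, 13 had p under 0.05 by Pearson's r and 6 by Spearman's rho, and 9 of the 13 were in SHR, 3 in QDG-treated SHR and 1 in WKY. The direction was the same in all 3 groups for 16 of the 21 pairs, 7 positive and 9 negative. Pairs that share a gene are not independent, and no expected count was set beside these numbers.

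In SHR, Dbp and Per3 correlated at r = 0.991 (exact permutation p = 0.00278, adjusted 0.0583; rho = 0.943, exact p = 0.0167, adjusted 0.210) and at 0.999 without the 2 libraries farthest from the median of Dbp. Dbp and Per2 gave r = 0.966 (exact permutation p = 0.00278, adjusted 0.0583; rho = 0.943, exact p = 0.0167, adjusted 0.210), and 0.946 without the 2 farthest. The activators ran against them. Dbp and Arntl had r = -0.929 (exact permutation p = 0.0236, adjusted 0.153; rho = -0.771, exact p = 0.103, adjusted 0.432), and -0.718 without the 2 farthest. For Per3 and Clock r was -0.941 (exact permutation p = 0.00278, adjusted 0.0583; rho = -0.943, exact p = 0.0167, adjusted 0.210), and -0.976 without the 2 farthest.

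Among the treated hearts the closest pair was Dbp and Per1, at r = 0.974 (exact permutation p = 0.00833, adjusted 0.131; rho = 0.943, exact p = 0.0167, adjusted 0.210) and 0.901 without the 2 farthest libraries. The same pair had r = 0.351 in SHR and -0.137 in WKY, where neither had an exact permutation p under 0.05 (0.543 and 0.815). Whether r differs between groups was not tested. In WKY the closest pair was Per3 and Arntl, at r = -0.969 (exact permutation p = 0.0111, adjusted 0.140; rho = -0.771, exact p = 0.103, adjusted 0.432) and -0.933 without the 2 farthest.

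Not all targets of ARNTL and CLOCK correlated with each other. In WKY, r with Dbp was -0.14 for Per1 and -0.07 for Per2. For Nr1d1, r with Dbp was -0.26 in QDG-treated SHR, 0.07 in SHR and -0.22 in WKY, with exact permutation p-values of 0.556, 0.886 and 0.689. Nr1d1 and Arntl in QDG-treated SHR had r = 0.737 (exact permutation p = 0.050, adjusted 0.225; rho = 0.371, exact p = 0.497, adjusted 0.949), and 0.453 without the 2 libraries farthest from the median of Nr1d1. Without QDG replicate 6, the low library for Nr1d1, r was 0.445. In SHR r was 0.05 and in WKY 0.55 (exact permutation p = 0.904 and 0.263), and without WKY replicate 5 the WKY value was -0.12.

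The 7 genes were also set against the number of genes listed at 0 in a library, and 1 of 21 relations passed adjustment by Pearson's r and 0 by Spearman's rho. These relations were not among the planned results. In WKY, Per3 had r = 0.898 with that number (exact permutation p = 0.00139, adjusted 0.0292 over 21 relations; rho = 1, exact p = 0.00278, adjusted 0.0583; r = 0.846 without the 2 farthest libraries). Arntl in WKY did not pass, with r = -0.880 (exact permutation p = 0.0139, adjusted 0.146; rho = -0.771, exact p = 0.103, adjusted 0.432; r = -0.660 without the 2 farthest). The part of that number in the correlation of Per3 and Arntl in WKY was not tested.

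**Figure D4:**
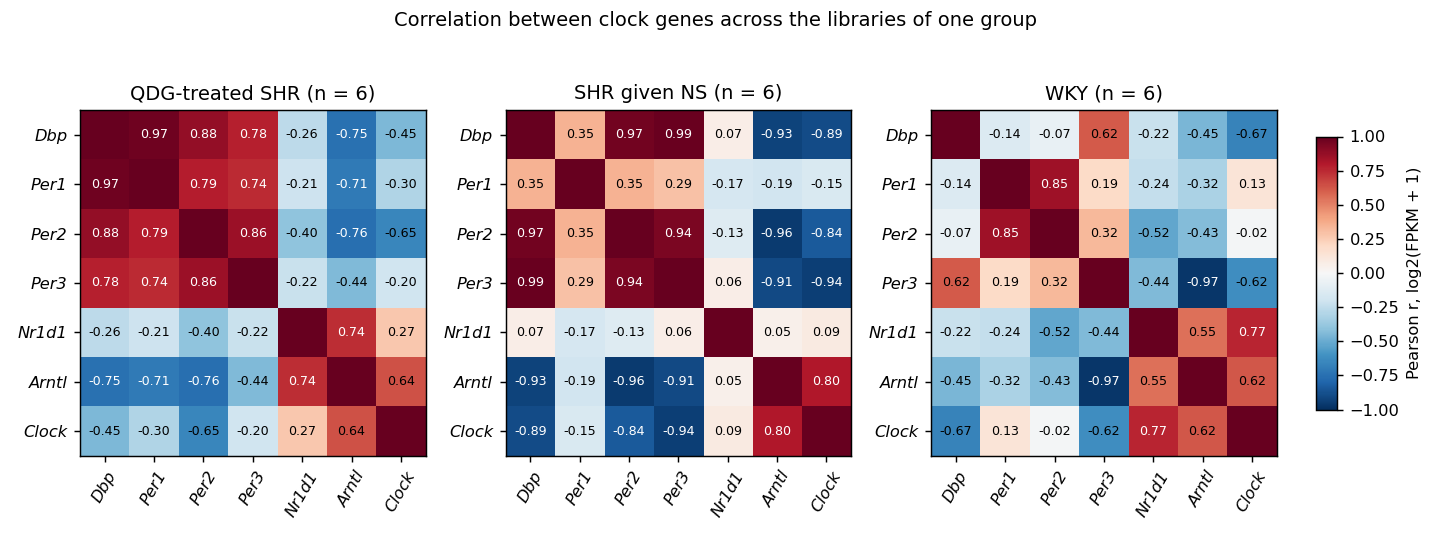
Pearson's r of log2(FPKM + 1) between each pair of clock genes across the 6 libraries of QDG-treated SHR, of SHR given NS and of WKY; red is positive and blue negative. In SHR, Dbp, Per2 and Per3 form a positive block (0.94 to 0.99) that is negative against Arntl and Clock (-0.84 to -0.96), and Per1 (0.29 to 0.35 with the block) and Nr1d1 (-0.13 to 0.07) stand outside it.

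Averaged over the 3 groups, the spread within groups lay above that of the median gene for all 7 clock genes. The SD of log2(FPKM + 1) within a group, averaged over the 3 groups, was 0.41 for Arntl, 0.39 for Per1, 0.38 for Dbp, 0.33 for Nr1d1, 0.31 for Per2, 0.24 for Clock and 0.22 for Per3, against a median of 0.14 over the 17397 genes. That placed Arntl at the 95.9th percentile of all genes, Dbp at the 95.1st, Clock at the 84.2nd and Per3 at the 78.2nd. Among the 1000 genes nearest in mean level, Arntl was at the 97.5th percentile and Per3 at the 80.0th. Taken by group, Per3 in WKY fell below the median gene, with an SD of 0.12 against 0.15. The group with the largest SD was not the same for all: it was SHR for Dbp (0.56), Per2 (0.53) and Per3 (0.36), QDG-treated SHR for Arntl (0.60) and Nr1d1 (0.45), and WKY for Per1 (0.45) and Clock (0.33). For 3 of these genes it rested on 1 library. The SD was 0.17 for Nr1d1 without QDG replicate 6, 0.12 for Per1 without WKY replicate 1 and 0.10 for Clock without WKY replicate 5, and none of these was then the largest of the 3 groups.

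The clock genes differed in how many other genes correlated with them within groups. Arntl had r of at least 0.5 in each of the 3 groups with 694 genes, or 3.99% of the genes tested, against 228 genes for the median gene. That count was 298 genes for Clock, 208 for Nr1d1, 77 for Per1, 53 for Dbp, 46 for Per3 and 33 for Per2. On the negative side, with r of -0.5 or less in each group, all 7 stood above the 42 genes of the median gene: 131 for Per2, 114 for Clock, 101 for Nr1d1, 85 for Per1, 65 for Per3, 64 for Dbp and 57 for Arntl. By both counts together, Arntl stood at the 79.5th percentile of the genes tested, Clock at the 59.3rd and Nr1d1 at the 50.1st. Per2, Per1, Dbp and Per3 stood at the 30.4th, 30.0th, 19.9th and 18.3rd. By the lowest of the 3 values of r, the genes most like Arntl were ENSRNOG00000021815 (0.90) and ENSRNOG00000013408 (0.88). ENSRNOG00000013408 also had the group order of Arntl in its means, 1.66 FPKM in QDG-treated SHR, 2.20 FPKM in SHR and 4.70 FPKM in WKY, whereas ENSRNOG00000021815 was at 7.86, 7.89 and 7.63 FPKM in that order of groups. The genes most like Dbp, NONRATG023581.2 (0.73) and NONRATG002135.2 (0.68), lacked its group order. NONRATG023581.2 had means of 2.92 FPKM in QDG-treated SHR, 3.49 FPKM in SHR and 3.47 FPKM in WKY. The means of NONRATG002135.2, all under 1 FPKM, were 0.949, 0.707 and 0.724 FPKM in that order of groups. Like Dbp, NONRATG002135.2 was thus highest in QDG-treated SHR, but its SHR mean was not above that of WKY. With 6 libraries a group these are descriptions of rank and no test was made.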

How the data were processed

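Total RNA of rat hearts, depleted of rRNA, was sequenced in 18 libraries of 3 groups, per the labels' protocols. The deposited values were taken as FPKM normalized by the authors. No header names the unit, which was read from the values: they are not whole and their sums differ between libraries. The submitters' processing notes name limma. Aligner, counter, build, annotation and strand: not given in the sources used here. Reads of antisense or overlapping genes therefore cannot be told apart.

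Genes at 1 FPKM or more in at least 6 libraries were kept (17397; all 7 clock genes passed). The test was limma (version 3.58.1, R 4.3.3) on log2(FPKM + 1), with an intensity trend and robust moderation, a mean per group over 18 libraries, two-sided, and Benjamini-Hochberg adjustment over the genes kept. Fold changes on this scale understate changes of genes with low values. The fit was tested on simulated data. Correlations used exact permutation of the 720 pairings (Python 3.11.15, scipy 1.17.1). The clock genes, motifs and lists were chosen with earlier results of these data known. All 7 clock genes are named, and the genes most like Dbp and Arntl were taken by the lowest of the 3 within-group r. Planned lists of other clock genes and of cell type markers were not used, since 0 Ensembl identifiers are in the RefSeq table. Alternatives were median centring, quantile normalization, no filter or one at 5 FPKM, a pseudocount of 0.1, limma without trend, sample weights, the compared groups alone, a replicate block, and each library left out. The SDs and the correlation of Nr1d1 and Arntl without single libraries were added after seeing the data. The relations to the number of genes listed at 0 and the counts of correlated genes were not among the planned results. Nor were the percentiles among genes nearest in mean level and the outlier bound.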

Additional observations from a re-analysis of the deposited data

Results flagged for a closer look

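In 24 sets of 6 values (each clock gene and the difference of Dbp and Arntl, in each group), 3 had a library whose gap to the nearest other exceeded, as a share of the whole range in log2(FPKM + 1), Dixon's 95% bound for 6 values. Chance gives about 1 in 20. Nr1d1 stood at 11.7 FPKM in QDG replicate 6, against 22.3 to 29.4 FPKM in the other QDG-treated libraries. Per1 stood at 10.7 FPKM in WKY replicate 1, against 21.5 to 26.3 FPKM in the other WKY libraries. Clock stood at 3.28 FPKM in WKY replicate 5, against 5.67 to 7.03 FPKM in the other WKY libraries. The same libraries did not stand apart for the other clock genes by this measure.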

How the results depend on the processing

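Over 486 alternative fold changes of the 6 tested genes, 0 reversed a call, 474 kept their side of the threshold, 8 lost a call (all of Per3 in QDG-treated SHR against SHR) and 4 gained one (Per1 in SHR against WKY and Clock in QDG-treated SHR against WKY, 2 each). All 81 alternative fold changes of Dbp moved by less than its spread within groups. For QDG-treated SHR against SHR the count of tested clock genes called was 0 with no filter on low values and 0 with the compared groups alone, with Per3 at adjusted p-values of 0.0633 and 0.0798, and 0 to 1 with each library left out; fewer samples enter the fit in these last 2 kinds of setting. Of all genes, 51 were called there, 77 after median centring, 79 after quantile normalization, 30 without a filter and 104 with sample weights (the cause was not tested), and 29 to 69 with each library left out: 32, 31 and 30 without QDG replicates 2, 3 and 6, and 30 and 29 without SHR replicates 4 and 6. The counts for both comparisons with WKY stayed within 1.5 times.

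Over all genes tested, same-numbered libraries correlated over 0.1 in 1 of 6 pairs for QDG and SHR. The count was 2 for SHR and WKY and 1 for QDG and WKY. Differently numbered pairs were not compared, and whether the number marks a shared batch or order was not tested. The difference of Dbp and Arntl was highest in replicates 3 and 6 in both QDG-treated SHR (3.77 and 3.61) and SHR (1.79 and 1.99). In WKY replicate 3 was the lowest (-2.15), with replicate 6 at -1.12. With a replicate block 40, 4760 and 4028 genes were called in the 3 comparisons, against 51, 4306 and 3642 without it. Per3 stayed called between the SHR groups at a limma adjusted p of 0.0448. The SE of Arntl was 0.18 with the block and 0.24 without. Depth is unknown, so counting error of low genes such as Per3 in WKY cannot be given.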
